A study of Mus musculus with 8 samples.

Results

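Replication-dependent histone genes encode the linker histone H1 and the core histones H2A, H2B, H3 and H4 that package newly made DNA. The set described here comprised every gene symbol beginning with Hist1h, Hist2h, Hist3h or Hist4h, which gave 68 of the 24222 symbols in the count tables. By type, 6 encoded H1, 18 encoded H2A, 19 encoded H2B, 12 encoded H3 and 13 encoded H4. Reads were counted in 58 of the 68 genes, and the other 10 were at 0 in all 8 libraries. By type, 6 of 6 H1, 13 of 18 H2A, 17 of 19 H2B, 10 of 12 H3 and 12 of 13 H4 genes had counts. GENCODE lists 1 member, Hist3h2bb-ps, as a pseudogene, and it had 1 read in all.

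The libraries came from haematopoietic stem cells sorted by flow cytometry from mouse bone marrow. The wild-type (WT) group held 4 control mice and the knockout (KO) group 4 mice lacking Kdm4a, Kdm4b and Kdm4c, all of strain C57BL6, and cells were taken 2 weeks after the knockout was induced. The Kdm4 enzymes remove methyl groups from lysines of histone H3, and the comparison asks how the RNA of stem cells differs after their loss. The sources used here do not give the age of the mice, the sort markers, the deleted exons or the promoter of any Cre driver. RNA was total RNA amplified into cDNA with the Nugen Ovation system, and each mouse gave 1 library.

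Most replication-dependent histone genes lie in clusters, have no introns and are transcribed mainly while DNA is copied. Their messenger RNA usually ends not in a poly(A) tail but in a short stem-loop, which the protein Slbp binds for processing, export and translation, and which marks the RNA for decay when DNA synthesis stops. Some of the genes also give longer, polyadenylated transcripts, which have been described in resting and differentiating cells. Haematopoietic stem cells divide rarely, so the level of these RNAs in a sorted population depends on how many cells are in S phase as well as on the RNA per cell. In bulk libraries fewer cells of a kind and less RNA per cell cannot be told apart.

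The stem-loop is the sequence that most of these genes have in common, and it was read from the GENCODE vM21 transcripts of GRCm38 (mm10). The model read for each gene was its shortest coding transcript, or its shortest where none is coding. The stem-loop was found in the models of 46 of the 68 genes, against 61 of 141691 transcripts of all other genes, or 0.0431%. By type it was present in 4 of 6 H1, 11 of 18 H2A, 10 of 19 H2B, 9 of 12 H3 and 12 of 13 H4 models. Of the 22 models without it, 13 held coding sequence only and so could not have shown it. For 11 of those 13 the model is the gene's only transcript, and no longer transcript of the other 2, Hist1h2bq and Hist1h2br, held the stem-loop either. In the 45 models where the position could be counted, it began between 22 and 59 bases after the stop codon, with a median of 32. The examples below are from genes whose counts are described later, with the 16 letters of the stem and loop in capitals and 5 flanking bases on each side.
Hist1h1e, chr13:23621777-23621802, minus strand: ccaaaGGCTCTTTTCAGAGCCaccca
Hist1h1c, chr13:23739507-23739532, plus strand: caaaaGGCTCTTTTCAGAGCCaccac
Hist2h2ac, chr3:96220413-96220438, minus strand: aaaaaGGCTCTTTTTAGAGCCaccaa
Hist1h2bb, chr13:23747198-23747223, plus strand: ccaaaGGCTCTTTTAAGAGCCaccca
Hist1h3g, chr13:23535884-23535909, plus strand: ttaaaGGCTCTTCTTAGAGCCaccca
Hist1h4d, chr13:23581945-23581970, plus strand: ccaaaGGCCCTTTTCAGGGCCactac
Hist2h4, chr3:96262934-96262959, minus strand: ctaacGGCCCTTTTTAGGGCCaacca

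The 46 stem-loops had 8 distinct sequences. The most frequent, in 26 genes, is the one shown for Hist1h1e, and it was found in H1, H2A, H2B and H3 genes. No H4 gene had it: of the 12 H4 stem-loops, 7 were identical to that of Hist1h4d, 2 to that of Hist2h4, 2 had the stem GGTCC and 1 had a different loop on the stem of Hist1h4d. The gene models differed in how far they continue past this element. In 18 genes the model went on for at least 200 bases, and these held 47.3% of all reads counted in the set, against 16.1% in the other 28 genes with a stem-loop. The 22 genes without a match in their model held the other 36.6%. Some of these 22 have long models, such as Hist2h2be, with 2620 bases and 11.5% of the reads. Others, such as Hist1h2bl with 7.40%, have coding sequence only. The shares therefore do not sort the reads by length of model. Counts per gene do not show on which side of the stem-loop the reads lay.

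Promoters were compared in RefSeq's table of GRCm38.p6, 250 bases before to 50 bases after the start site, which matched 62 of the 68 genes. The CCAAT box (CCAAT on either strand) was present in 53 of them, or 85.5%, against 37.4% of all promoters of that length. It was found in each H1, H2A, H2B and H3 promoter examined but in only 3 of 12 H4 promoters. The letters of the TATA box (TATAAA on either strand) were present in 35, or 56.5%, against 13.6%. Each motif was searched over the whole window with no limit on position, so a match is not shown to be in use. The only TATAAA of Hist1h4f, for example, is at the upstream end of its window. The octamer bound by Oct1 (ATTTGCAT on either strand) was present in 13, or 21.0%, against 1.74%, and those 13 were 7 of 18 H2A and 6 of 16 H2B promoters. Some neighbours are transcribed away from each other and have overlapping windows, so 1 CCAAT box, TATA box or octamer can count for both genes. The TATA box between Hist1h2ak and Hist1h2bn is an example, and the counts were not corrected for this. The motifs do not overlap one another in the sequences below. A promoter of each kind is shown with the motifs in capitals, that of Hist1h2bb because this H2B gene had the smallest p of the set, and that of Hist1h4d because this H4 gene had the most reads.
Hist1h2bb, chr13:23746484-23746783, plus strand: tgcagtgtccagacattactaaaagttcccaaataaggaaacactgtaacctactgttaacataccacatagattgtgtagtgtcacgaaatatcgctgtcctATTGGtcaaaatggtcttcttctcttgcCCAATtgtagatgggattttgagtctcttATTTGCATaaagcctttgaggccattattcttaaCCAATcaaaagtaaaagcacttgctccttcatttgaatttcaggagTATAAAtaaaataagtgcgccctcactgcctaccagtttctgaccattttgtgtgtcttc
Hist1h4d, chr13:23581318-23581617, plus strand: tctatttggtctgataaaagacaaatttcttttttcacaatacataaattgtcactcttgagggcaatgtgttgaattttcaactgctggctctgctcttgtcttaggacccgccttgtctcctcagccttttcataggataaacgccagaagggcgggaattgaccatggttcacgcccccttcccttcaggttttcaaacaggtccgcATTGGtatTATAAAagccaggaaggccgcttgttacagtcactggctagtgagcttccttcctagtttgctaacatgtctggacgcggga

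The genes lie in 4 places of the genome. Chromosome 13 held 54 of them between 21715763 and 23934851, chromosome 3 held 10 between 96219865 and 96270132, chromosome 11 held 3, and Hist4h4 stood alone on chromosome 6. In 14 pairs, neighbours were transcribed away from each other with starts within 1000 bases. Of these pairs, 13 joined an H2A with an H2B gene across gaps of 172 to 305 bases, and 1 joined an H2B with an H3 gene. The 2 sides of a pair did not have equal counts. Among the 13 H2A and H2B pairs, the H2B gene had more reads in 9, the H2A gene in 2, and both were at 0 in 2. Hist3h2a, with 108 reads, led over the pseudogene Hist3h2bb-ps, with 1. Sequence uniqueness, described next, had a median of 27.0% in H2A and 50.3% in H2B genes, and its part in these counts was not tested. Hist1h2bl had 2223 reads in all and its partner Hist1h2ai had 103, whereas Hist1h2ak had 1263 and its partner Hist1h2bn had 203.

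Many of these genes are near-identical copies of each other, and some lie under other gene models. Uniqueness was measured on the same 1 transcript per gene, as the percentage of its 50-base windows that occur in no transcript of another gene, and its median over the 68 genes was 45.5%. The 10 genes at 0 in every library were Hist1h2aa, Hist1h2ao, Hist1h2ap, Hist1h2bq, Hist1h2br, Hist1h4m, Hist2h2aa1, Hist2h2aa2, Hist2h3c1 and Hist2h3c2. Their median uniqueness was 3.25%, with 9 of the 10 under 50%. The shortest coding transcripts of Hist1h2bq and Hist1h2br shared all their windows with each other. The 30 genes with counts that were too low to test had a median of 45.0%, and the 28 tested genes had 64.0%. Over the 68 genes, Spearman's rho between uniqueness and total count was 0.468, given as a description since the genes share libraries and sequence. The gene with the third most reads of any H2A or H2B gene, Hist1h2bc, was 69.4% unique, but Hist1h2bl, with the second most, was only 17.2% unique and shared 72.0% of its windows with Hist1h2bq. Hist1h1e shared 23.8% of its windows with Hist1h2be, whose gene model in GENCODE overlaps 496 of its 1930 bases. Hist2h2bb and Hist2h3b had no unique window and still had counts, 110 and 18 reads in all. Both lie under Gm20628, an antisense model of GENCODE, and without the 27 other gene models whose exons overlap a member on either strand they were 100% and 20.3% unique. The median over the 68 genes was then 51.8%, and over the 10 genes at 0 it was 8.56%. Of those 10, Hist2h3c1, under Gm20634, went from 0% to 65.2%, and Hist2h2aa2 still shared every window with Hist2h2aa1. Whether the authors' annotation held these models is not known from the sources used here, so the uniqueness of such genes is uncertain. The sources used here do not say how reads that map to several genes were counted, and the part of shared sequence in these counts was not tested. The values of all members with low uniqueness are therefore uncertain as levels of 1 gene, and so are sums over a histone type.

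**Figure D1:**
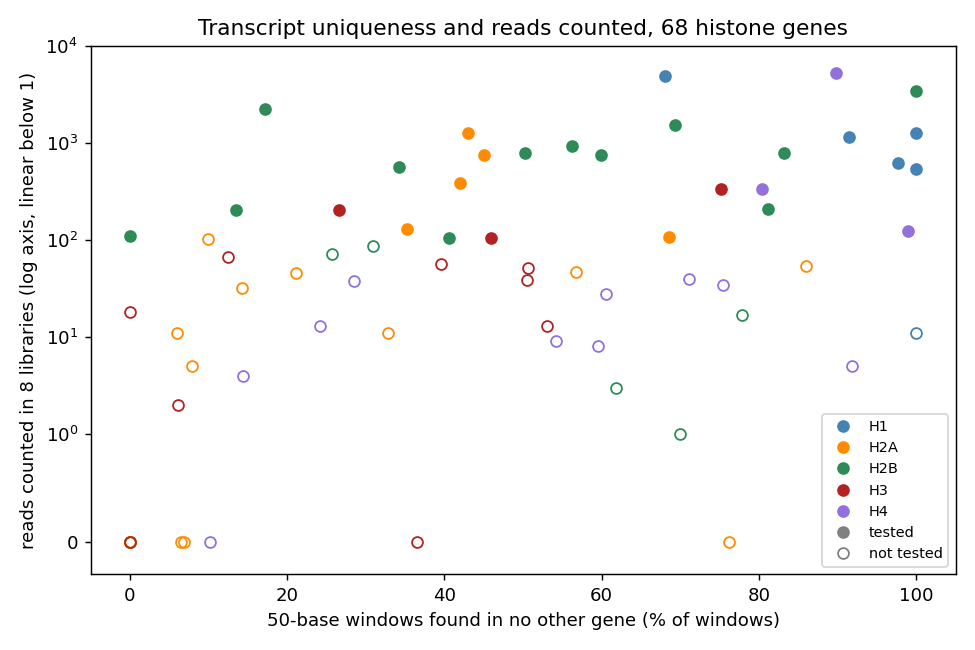
Percentage of 50-base windows found in no other gene (x axis) against reads counted over the 8 libraries (y axis, log scale, linear below 1), 1 point per gene, coloured by histone type; filled points are the 28 tested genes. Of the 10 genes at 0, 9 lie under 50% uniqueness, while Hist1h2bl lies at 17.2% with 2223 reads.

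Histone reads were a small part of each library. Library totals ran from 3594315 to 14872493 counts, and the 68 genes took 0.0427% to 0.0749% of them, 30047 reads in all. Reads were counted in 43 to 54 of the 68 genes per library, and 39 genes had reads in every library. H2B genes held 39.3% of the 30047 reads, H1 genes 28.2%, H4 genes 19.7%, H2A genes 9.82% and H3 genes 2.97%. Hist1h4d alone took 17.6%, and the 3 leading genes, Hist1h4d, Hist1h1e and Hist2h2be, took 45.3%. The 10 leading genes took 75.7%. Per kilobase of annotated exon the order differed: Hist1h2bl had a mean CPM (counts scaled to a common library total) per kilobase of 114, Hist1h4d 87.4, Hist1h2ak 64.1 and Hist1h1e 48.9. These per-length levels share the uncertainty of copies and of transcript ends. Median uniqueness by type was 98.9% for H1, 60.5% for H4, 50.3% for H2B, 38.0% for H3 and 27.0% for H2A genes. The part of shared sequence in the read shares by type was not tested.

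The 3 testis members were nearly or wholly without reads. Hist1h1t, the testis H1, had 11 reads in all, with counts of 0, 0, 1 and 0 in the WT mice and 2, 5, 3 and 0 in the KO mice. Hist1h2ba, the testis H2B, had 3 reads in all, and Hist1h2aa, the testis H2A, had 0. A count of 0 in a library allows up to 3 reads, and this floor covers counting error only.

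The labels were checked on the targeted genes first. Kdm4c had 98.8, 113, 148 and 101 CPM in the WT mice and 26.0, 49.0, 28.7 and 40.3 CPM in the KO mice, always given in the order of mouse 1 to 4, and its log2 fold change was -1.71 (edgeR quasi-likelihood test, adjusted p = 2.06e-05). Kdm4a was 36.3 ± 9.56 CPM in WT and 20.3 ± 3.86 in KO (SD, n = 4; adjusted p = 0.132), and Kdm4b was 10.2 ± 2.44 and 3.73 ± 1.79 CPM (adjusted p = 0.142). For all 3 genes each KO library lay below each WT library. Of 10 markers of haematopoietic stem cells, 10 were above 3 counts in every library, and 0 were called by edgeR. Of the 10, 1 was higher and 5 were lower at an unadjusted p under 0.05, where 5.75% and 5.45% of all genes were. The 1 higher was Ly6a (edgeR adjusted p = 0.0967), and the 5 lower included Hlf (0.235) and Kit (0.22). Fitted log2 fold changes were below 0 for 8 markers and above 0 for 2, with a median of -0.27. Their summed level was 4623 to 4942 CPM in WT and 3802 to 4248 CPM in KO, with Ly6a at 47.9 ± 14.1 and 81.0 ± 6.52 CPM, Hlf at 1475 ± 133 and 1214 ± 102 CPM and Kit at 1093 ± 60.6 and 888 ± 99.6 CPM. Markers of other marrow cells were at 13.3 to 21.9 CPM in sum for B and T cells (12 genes) and 188 to 253 CPM for neutrophils and monocytes (11 genes). Those of erythroid cells (14 genes) summed to 2276 to 2486 CPM in WT and 1326 to 1530 CPM in KO. Nearly all of that was Car2, with 2286 ± 111 and 1306 ± 84.9 CPM (adjusted p = 4.21e-06), and 6 globin genes were at 0 in all libraries. The part of these shifts in the histone values was not tested.

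The summed level of the 68 histone genes did not separate the groups. It was 663, 534, 686 and 478 CPM in the WT mice and 563, 482, 424 and 770 CPM in the KO mice. The highest and the lowest of the 8 values were both KO libraries, mouse 4 and mouse 3. The means were 590 ± 101 CPM in WT and 560 ± 151 CPM in KO (SD, n = 4), a log2 ratio of KO over WT of -0.08. This ratio ran from -0.27 without KO mouse 4 to 0.04 without KO mouse 3, so its sign rests on single mice.

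By type, the sums overlapped between the groups for every histone. H1 genes summed to 169 ± 38.7 CPM in WT and 160 ± 54.5 in KO, and H4 genes to 114 ± 24.3 and 111 ± 34.9 CPM. H2B genes summed to 226 ± 32.3 and 221 ± 48.4 CPM. H3 genes had the higher mean in KO, 17.7 ± 2.41 CPM against 14.3 ± 5.09 in WT, and H2A genes the lower one, 50.3 ± 14.5 CPM against 67.3 ± 11.3 in WT. For H3 the difference between the means is smaller than the SD of the WT mice. For H2A it is larger than either SD, with values from 51.8 to 76.5 CPM in WT and from 33.8 to 67.2 CPM in KO that overlap.

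**Figure D2:**
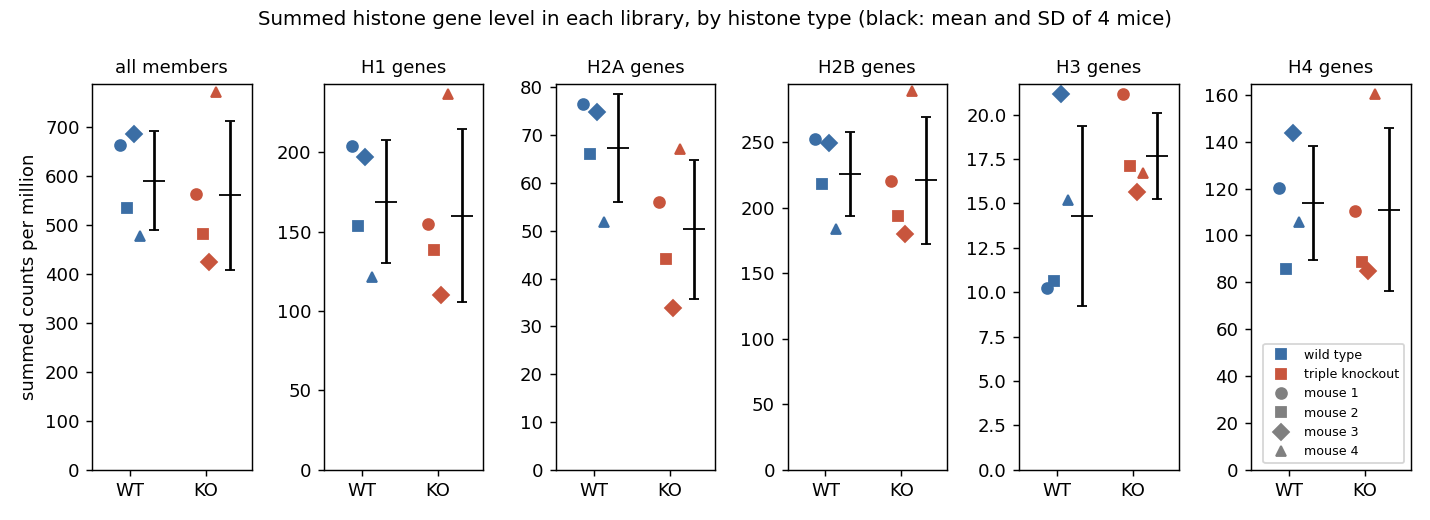
Summed CPM (y axis, from 0) of all 68 histone genes and of each type in WT and KO libraries; each point is 1 mouse and black bars are the mean and SD of 4 mice. WT and KO points overlap in all 6 panels, and KO mouse 4 is highest of its group except for H3.

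No histone gene passed the test for a difference between KO and WT. Of the 68 genes, 28 had counts high enough to test: 5 H1, 5 H2A, 12 H2B, 3 H3 and 3 H4 genes, which held 96.9% of the histone reads (72.4% for H3 and 89.5% for H2A). At an adjusted p under 0.05, 0 of 28 were higher in KO and 0 were lower, where 0.252% of all 11498 tested genes were higher and 0.33% lower. DESeq2 and limma voom likewise called 0 histone genes. At an unadjusted p under 0.05, 0 of 28 were higher and 4 were lower, where 5.75% of all genes were higher and 5.45% lower. The 4 were Hist1h2bb, Hist1h2ak, Hist1h4c and Hist3h2a. In no histone gene did every KO library lie above or below every WT library, which was so for 2.88% (above) and 2.93% (below) of all genes. A log2 fold change below 0 was fitted for 18 of 28, or 64.3%, against 49.8% of all genes.

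The size of difference that these libraries could have missed was large for most members. The median log2 fold change of the 28 genes was -0.15 against 0.00 for all genes, and their median standard error (SE) was 0.40 against 0.25. Their median level was 11.3 CPM against 29.5. Fold changes ran from -1.32 (Hist3h2a) to 0.56 (Hist1h3g) on the log2 scale. By type, the median was -0.15 for H1, -0.59 for H2A, -0.01 for H2B, 0.47 for H3 and -0.78 for H4. Of these types, all 5 tested H2A and all 3 tested H4 genes were below 0, and all 3 tested H3 genes were above 0, none of them past the threshold. Of the H1 genes, 4 were below 0 and 1 above, and of the H2B genes 6 and 6.

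**Figure D3:**
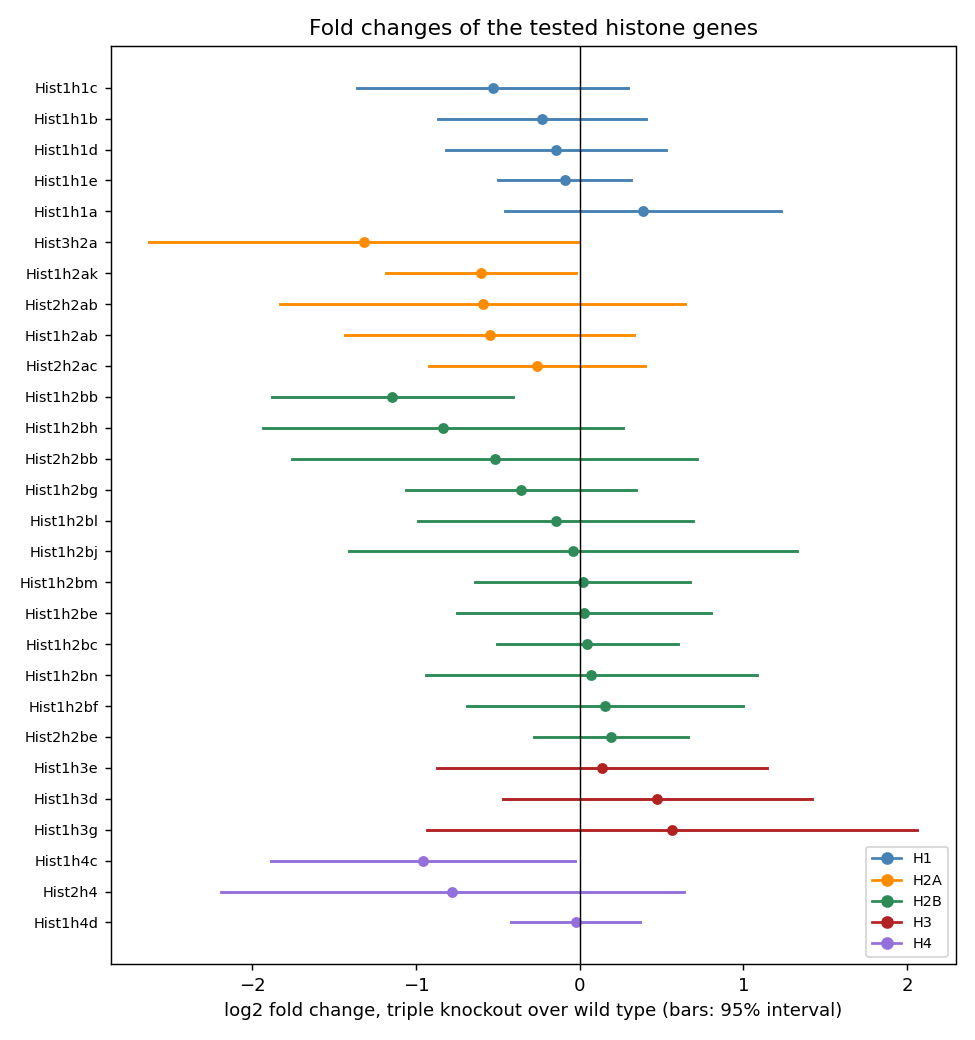
Log2 fold change of KO over WT (x axis) with its 95% interval for the 28 tested histone genes, grouped and coloured by type. The intervals of all but Hist1h2bb, Hist1h2ak, Hist1h4c and Hist3h2a include 0, and those of Hist1h4d, Hist1h1e and Hist2h2be are the narrowest.

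The 3 leading genes gave the narrowest intervals. Hist1h4d, which encodes H4, had 104, 72.2, 125 and 93.6 CPM in the WT mice and 97.8, 80.8, 78.6 and 144 CPM in the KO mice. The 2 groups lay over each other, with a fold of KO over WT of 0.983 and a 95% interval of 0.747 to 1.29. Hist1h1e, the H1 gene of the set with the most reads, had 103, 90.1, 114 and 77.4 CPM in WT and 90.5, 78.0, 65.1 and 137 CPM in KO. Its fold was 0.938, with an interval of 0.706 to 1.25. KO mouse 4 was the highest library for both genes, as it was for the sum. Hist2h2be, an H2B gene of the chromosome 3 cluster, had 26.4, 82.8, 71.1 and 57.3 CPM in WT and 63.0, 68.2, 69.8 and 60.2 CPM in KO. The KO libraries were close together for it, with an SD of 4.48 CPM against 24.4 in WT, where mouse 1 was low. Its fold was 1.14 with an interval of 0.824 to 1.58. Differences within these bounds were not resolved by 4 mice a group. The direction of each of these 3 fold changes turned when single mice were left out.

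**Figure D4:**
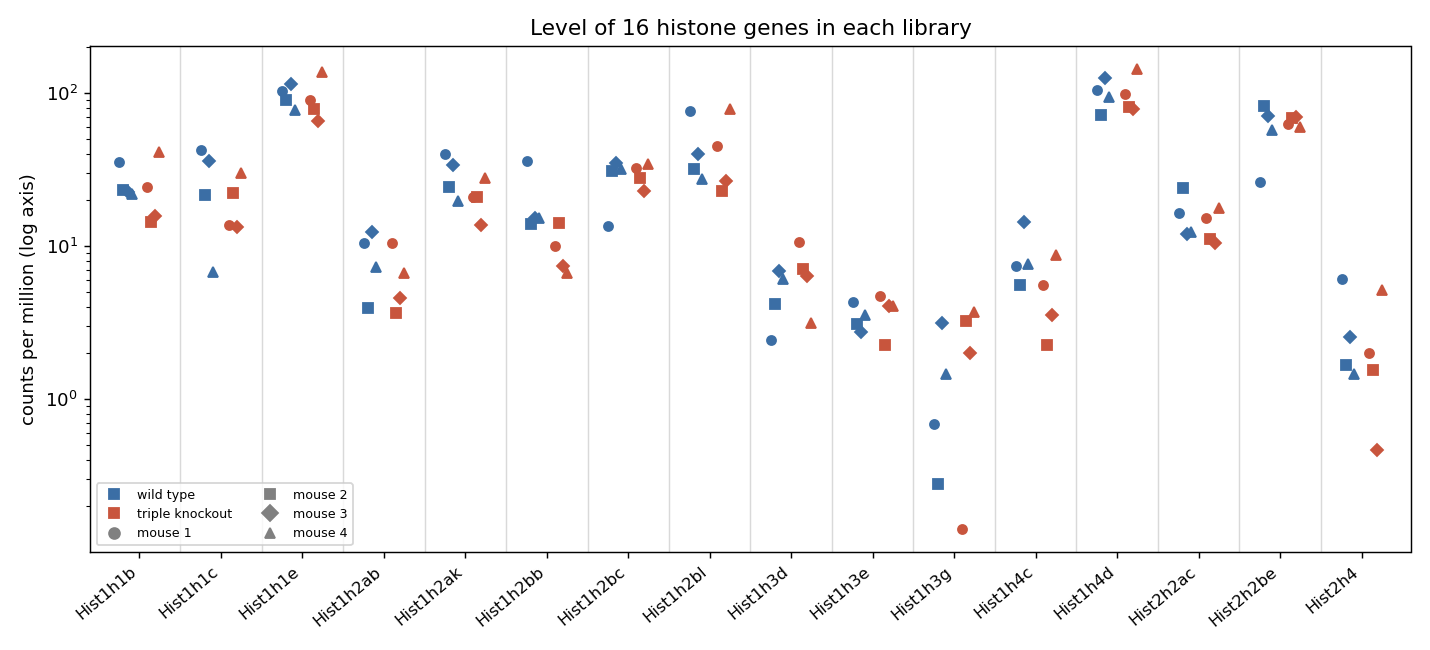
CPM (y axis, log scale) of 16 histone genes in each library; blue points are WT, red points KO, and the marker shape gives the mouse. WT and KO points overlap for every gene, and WT mouse 1 is the highest WT library for Hist1h1b and Hist1h2bb and the lowest for Hist1h2bc and Hist2h2be.

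Among the linker histones, Hist1h1b and Hist1h1c encode H1 variants expressed in many tissues. Hist1h1b had 35.4, 23.2, 22.5 and 21.8 CPM in WT and 24.2, 14.3, 15.7 and 41.4 CPM in KO, and its log2 fold change was -0.23 with an SE of 0.31. Hist1h1c had 42.5, 21.5, 36.0 and 6.78 CPM in WT and 13.7, 22.2, 13.2 and 29.9 CPM in KO. The WT libraries of Hist1h1c alone spanned more than the KO libraries, and its log2 fold change was -0.53 with an SE of 0.40. Hist1h1a and Hist1h1d had mean levels of 10.3 and 11.6 CPM and log2 fold changes of 0.39 and -0.15. The smallest adjusted p of the 5 H1 genes was 0.676.

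The 5 tested H2A genes all had a lower fitted level in KO, and none passed the threshold. Hist1h2ak had 40.2, 24.3, 33.9 and 19.7 CPM in WT and 20.9, 20.9, 13.6 and 28.0 CPM in KO, with a log2 fold change of -0.60 ± 0.28 (SE, edgeR adjusted p = 0.422). Only WT mouse 4 and KO mouse 4 crossed the gap between the groups. Hist2h2ac had 16.5, 23.8, 11.9 and 12.4 CPM in WT and 15.3, 11.2, 10.4 and 17.6 CPM in KO, and Hist1h2ab had 10.4, 3.92, 12.3 and 7.26 CPM in WT and 10.4, 3.68, 4.61 and 6.68 CPM in KO. Their log2 fold changes were -0.26 and -0.55, with groups that overlapped. Hist3h2a, singled out after its values were seen, had the lowest fold change of all, -1.32 ± 0.64. Its levels were 0.69, 5.87, 3.72 and 3.39 CPM in WT and 1.00, 1.13, 1.00 and 2.41 CPM in KO (adjusted p = 0.441). It rests on 108 reads in all, and WT mouse 1 was below every KO library.

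H2A genes also took a smaller share of the histone reads in KO. This share was 11.5, 12.4, 10.9 and 10.8% in the WT mice and 9.95, 9.16, 7.95 and 8.72% in the KO mice, so the groups did not overlap. As a share of H2A and H2B reads only, H2A genes took 22.0 to 23.3% in WT and 15.8 to 20.2% in KO. The measure was chosen after the values were seen and has no test. Without Hist1h2ak, the H2A gene with the most reads, the share of histone reads was 5.81 to 8.18% in WT and 4.90 to 6.48% in KO, and the groups overlapped.

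**Figure D5:**
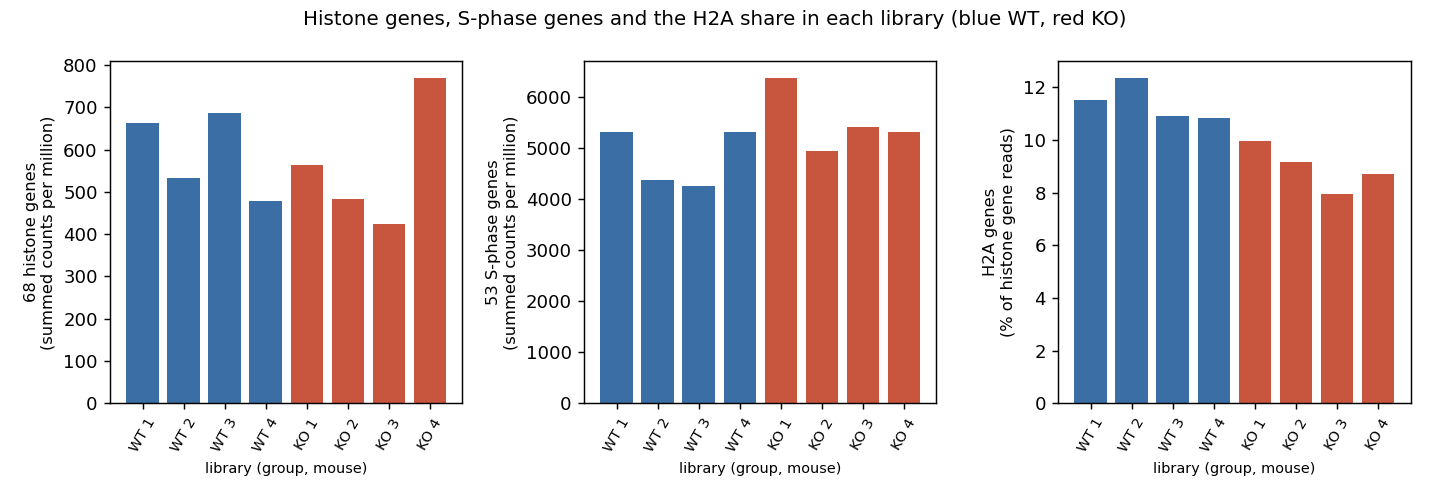
Summed CPM of the 68 histone genes (left) and of 53 S-phase genes (middle), and H2A genes as a percentage of histone reads (right), 1 bar per library, WT blue and KO red. KO mouse 4 has the highest histone sum, KO mouse 1 the highest S-phase sum, and all 4 KO bars lie under the WT bars for the H2A share.

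Among H2B genes, Hist1h2bb had the smallest p of all 28 histone genes. It had 35.9, 14.0, 15.3 and 15.2 CPM in the WT mice and 10.0, 14.2, 7.42 and 6.68 CPM in the KO mice. The groups overlapped at WT mouse 2 and KO mouse 2, and WT mouse 1 was the highest. The fold of KO over WT was 0.452 with a 95% interval of 0.271 to 0.753, and the adjusted p was 0.177 with edgeR and between 0.0502 and 0.537 over the alternative settings (exact permutation test over libraries, two-sided p = 0.0571). Hist1h2bl had 76.3, 31.9, 39.8 and 27.6 CPM in WT and 44.7, 22.9, 26.7 and 78.2 CPM in KO. Its 2 highest libraries were 1 of each group, and its log2 fold change of -0.15 ± 0.39 (SE) was 0.30 without WT mouse 1. Hist1h2bc had 13.5, 31.0, 35.1 and 31.8 CPM in WT and 32.4, 27.9, 22.7 and 34.4 CPM in KO. Its log2 fold change was 0.05 ± 0.27 (SE) and -0.20 without WT mouse 1. The other 8 tested H2B genes had log2 fold changes of -0.84 to 0.16 and overlapping groups.

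H3 genes had few reads, and their tested members were fitted higher in KO with wide intervals. Hist1h3d had 2.43, 4.20, 6.86 and 6.13 CPM in WT and 10.6, 7.08, 6.35 and 3.16 CPM in KO, with a log2 fold change of 0.47 ± 0.46 (SE). Hist1h3e had overlapping groups, at 3.43 ± 0.69 and 3.79 ± 1.06 CPM (SD, n = 4). Hist1h3g had 0.69, 0.28, 3.13 and 1.45 CPM in WT and 0.14, 3.26, 2.01 and 3.71 CPM in KO, which rests on 1 to 16 reads per library in WT and 1 to 30 in KO. Its log2 fold change was 0.56, and ran from 0.30 without WT mouse 1 to 1.24 without WT mouse 3. The smallest adjusted p of the 3 was 0.772. The other 9 H3 genes, among them Hist1h3a, Hist1h3b, Hist1h3c and Hist1h3i, did not pass the filter for testing.

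The H4 genes beside Hist1h4d were low. Hist1h4c had 7.45, 5.59, 14.3 and 7.58 CPM in WT and 5.57, 2.26, 3.54 and 8.73 CPM in KO, with a log2 fold change of -0.96 ± 0.45 (SE, edgeR adjusted p = 0.424). KO mouse 4 was above 3 of the 4 WT libraries. Hist2h4 had 6.07, 1.68, 2.55 and 1.45 CPM in WT and 2.00, 1.56, 0.47 and 5.20 CPM in KO, and its log2 fold change was -0.78 ± 0.69 (SE). It rests on single mice, at -0.09 without WT mouse 1 and -1.44 without KO mouse 4, and it sets the H4 median. The 10 other H4 genes, Hist1h4m at 0 among them, were not tested.

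Replication-independent histones, or replacement variants, can be made outside S phase. In the 18 of them present in the tables, 10 were tested, and 0 were called higher or lower by edgeR (1 higher and 0 lower at an unadjusted p under 0.05, the threshold passed by 5.75% and 5.45% of all genes), with a median log2 fold change of -0.02. H2afz, which encodes H2A.Z, had the smallest p. Its level was 457 ± 104 CPM in WT and 607 ± 125 CPM in KO (SD, n = 4; edgeR adjusted p = 0.286, and 0.0376 with no filter on low counts). H2afy, which encodes macroH2A, had 342 ± 65.0 and 295 ± 40.6 CPM. The H3.3 genes H3f3a and H3f3b, with 88.5 ± 7.55 and 229 ± 42.4 CPM in WT and 81.8 ± 15.7 and 232 ± 51.1 CPM in KO, each had a higher level than the 12 H3 genes of the replication-dependent set summed. The sum of the 12 H3 genes is uncertain, since their median uniqueness was 38.0% and the part of shared sequence was not tested. H2afx, whose protein marks DNA breaks, was at 78.6 ± 10.5 and 77.6 ± 18.7 CPM.

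In the machinery that makes and removes histone mRNA, edgeR called no gene. DESeq2 called Lsm6 lower, and edgeR with no filter on low counts called Ccne1 higher. For DESeq2 and for edgeR with no filter, the share of all genes called is not given here. Of 41 tested genes of histone transcription and 3′ end processing, 0 were called by edgeR, with a median log2 fold change of 0.05. At an unadjusted edgeR p under 0.05, 3 were higher and 0 lower, where 5.75% and 5.45% of all genes were. Ccne1, the cyclin that activates histone transcription through Npat, had the smallest p. Its mean was 2.64 ± 1.92 CPM in WT against 8.93 ± 6.47 CPM in KO (edgeR adjusted p = 0.165, and 0.0164 with no filter). Its level in KO mouse 3 was 18.1 CPM against 4.00 to 8.78 in the other KO libraries. Mbnl1 and Ybx1 had the highest levels of that list, 1739 ± 114 and 637 ± 55.0 CPM in WT and 1750 ± 115 and 666 ± 51.9 CPM in KO. Of 24 genes of histone mRNA translation and decay, 0 were called by edgeR and 1, Lsm6, by DESeq2, with a median of 0.11. At the same unadjusted threshold, 2 were higher and 1 lower, beside the same shares of all genes. Lsm6, of the Lsm ring that binds the tail of decaying histone mRNA, had 86.9, 73.8, 63.1 and 65.2 CPM in WT and 49.0, 47.6, 51.6 and 45.9 CPM in KO. All 4 KO libraries were below all 4 WT libraries, which was so for 2.93% of all genes. The log2 fold change of Lsm6 was -0.56 ± 0.18 (SE, edgeR adjusted p = 0.184, DESeq2 adjusted p = 0.048). Dhx9 and Smg1, the latter a kinase of Upf1, had the highest levels, 629 ± 37.4 and 523 ± 20.2 CPM in WT and 655 ± 68.3 and 579 ± 81.9 CPM in KO.

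Histone chaperones carry new histones to DNA, and S-phase genes copy it. Of 33 tested chaperone and deposition genes, 0 were called by edgeR, with a median log2 fold change of 0.10. At an unadjusted edgeR p under 0.05, 4 of the 33 were higher and 0 lower, where 5.75% and 5.45% of all genes were. Hat1, which acetylates new H4, had 151 ± 25.5 CPM in WT and 202 ± 33.0 CPM in KO (edgeR adjusted p = 0.258). Npm1 and Atrx had the highest levels of that list, 8369 ± 1594 and 1412 ± 97.8 CPM in WT and 8804 ± 4153 and 1276 ± 159 CPM in KO. Of 53 S-phase genes, 0 were called by edgeR. At an unadjusted p under 0.05, 8 of the 53 were higher and 0 lower, where 5.75% and 5.45% of all genes were. A log2 fold change below 0 was fitted for 11 of the 53 and above 0 for 42, where 49.8% of all genes were below 0, and the median was 0.14 against 0.00. Mcm6, a subunit of the replicative helicase, had 474 ± 55.0 CPM in WT and 622 ± 94.3 CPM in KO (edgeR adjusted p = 0.163, and 0.0494 with no filter), and Rrm1, a subunit of ribonucleotide reductase, had 415 ± 69.7 and 466 ± 57.2 CPM.

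The order of the mice differed between the histone sum and the S-phase genes. The S-phase genes summed to 5315, 4371, 4240 and 5306 CPM in the WT mice and 6368, 4942, 5412 and 5297 CPM in the KO mice. KO mouse 1 had the highest S-phase sum but a histone sum of 563 CPM, between those of WT mice 1 and 4. WT mouse 3 had the lowest S-phase sum and, at 686 CPM, the second highest histone sum. The 9 markers of cycling cells, among them Mki67 and Top2a, summed to 3055, 2650, 2577 and 3440 CPM in WT and 4554, 3314, 3249 and 3277 CPM in KO. They too were highest in KO mouse 1, and 0 of 9 were called by edgeR, with 3 higher at an unadjusted p under 0.05, the threshold passed upward by 5.75% of all genes. Ccna2 had a mean of 128 ± 18.9 CPM in WT against 175 ± 27.4 CPM in KO (edgeR adjusted p = 0.254).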

How the data were processed

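RNA-seq of sorted haematopoietic stem cells gave 1 library for each of 4 WT and 4 KO mice. The authors deposited raw read counts, 1 table of gene symbols per library. Per the labels' protocols, reads were mapped with RNA STAR (Galaxy version 2.4.0d-2) and counted with htseq-count (Galaxy version 0.6.1galaxy1). The build was mm10, per the submitters' processing notes. The sources used here do not give the annotation, the strand setting or the treatment of multiply mapped reads. Amplified reads carry no molecular identifiers, so floors and intervals cover counting error or spread between mice only.

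Counts were tested with edgeR 4.0.16 (R 4.3.3): filterByExpr (minimum count 10, minimum total 15; 11498 genes kept), TMM scaling (factors 0.974 to 1.03), robust quasi-likelihood test of genotype, two-sided, Benjamini-Hochberg over all 11498 genes. CPM are counts scaled by TMM-adjusted totals. SE is the log2 fold change divided by the square root of F. Permutation tests used log2(CPM + 0.5), where 4 against 4 cannot go below 0.0286. The procedure was tested on simulated data. Alternatives used DESeq2 1.42.0 and limma 3.58.1. Named genes were, in each histone type, the 3 tested members of highest level and that of smallest p; in each companion list, called members or that of smallest p, and the 2 of highest level; and the testis and Kdm4 genes. H3f3a, H3f3b, H2afx, H1f0, Hist1h1a, Hist1h1d, Hist3h2a and the head-to-head, uniqueness and stem-loop examples were named outside this rule, after their values were seen. A Spearman coefficient, uniqueness, stem-loops and promoter motifs were computed from GENCODE and RefSeq files. Members and lists were chosen with earlier results of these data known.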

Additional observations from a re-analysis of the deposited data

Results flagged for a closer look

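Single libraries stood apart in 3 of 68 groups of 4 mice checked, where chance alone flags about 1 in 20 groups. Hist1h1b was at 35.4 CPM in WT mouse 1, against 21.8 to 23.2 in the other WT mice. Hist1h2bb was at 35.9 CPM in WT mouse 1, against 14.0 to 15.3. Hist3h2a was at 2.41 CPM in KO mouse 4, against 1.00 to 1.13 in the other KO mice.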

How the results depend on the processing

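The counts of histone genes called higher and lower were 0 and 0 under all 17 alternatives (DESeq2 size factors, library totals, no filter, a filter of 5 CPM in 4 libraries, DESeq2, voom, edgeR's legacy method, a replicate block, no ribosomal RNA, and each library left out). The median log2 fold change of the tested histone genes ran from -0.35 to -0.06, and that of all genes from -0.01 to 0.01. With the replicate number as a block the calls stayed 0, the companion lists had 0 calls and the median was -0.14. Deviations of same-numbered mice correlated at -0.10, -0.01, -0.02 and -0.06, and no library correlated best with its own number. With 4 mice a group this does not settle whether same-numbered mice were paired. Companion lists, recomputed under alternatives chosen after seeing the data, had 3 calls with no filter (Ccne1, H2afz and Mcm6, all higher). With DESeq2 they had 1 (Lsm6, lower). The share of all genes called under either setting is not given here, and the cause was not tested. Median uniqueness was 55.8% with 75-base windows and 51.8% without overlapping gene models. The log2 fold change of Hist1h4d was 0.011 with DESeq2 and 0.014 with edgeR's legacy method. With single mice left out it ran from -0.23 to 0.10, that of Hist1h1e from -0.32 to 0.073, Hist1h2bc from -0.20 to 0.19, Hist1h2bl from -0.54 to 0.30, Hist2h2be from -0.073 to 0.36, Hist2h4 from -1.44 to -0.09 and Hist1h3g from 0.30 to 1.24. Of the 68 members, 40 did not pass the filter on low counts; the cause was not tested.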

Other observations

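WT mouse 1 was singled out after its values were seen. Over the 28 tested histone genes it was the highest WT library in 12 and the lowest in 5, while WT mice 2, 3 and 4 were the highest in 3, 12 and 1 and the lowest in 9, 3 and 11. At an end of its group in 17 of 28, it was close to WT mouse 3 with 15. Among the KO libraries, mouse 4 was the highest in 19 and the lowest in 4. WT mouse 1 had the lowest WT level of Hist2h2be (26.4 CPM against 57.3 to 82.8), of Hist1h2bc (13.5 against 31.0 to 35.1) and of Hist3h2a (0.69 against 3.39 to 5.87). It had the highest of Hist1h2bb (35.9 CPM), Hist1h1b (35.4), Hist1h2bl (76.3 against 27.6 to 39.8) and Hist2h4 (6.07 against 1.45 to 2.55). H1f0, the replication-independent linker histone of resting cells, was at 148 CPM in WT mouse 1 and 153 CPM in KO mouse 3, against 247 to 288 in the other 6 libraries. H3f3b was lowest in the same 2 libraries, at 168 and 159 CPM, against 232 to 277 in the others. The 2 libraries differ in depth, with 5902042 and 14872493 counts. The summed histone level of WT mouse 1, 663 CPM, was within the range of its group.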
